A study of Brassica napus with 3 samples.

Results

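Pseudochromosome 8 of the Brassica rapa reference carried 4389 of the 59136 H3K4me3 peak summits that were listed on that reference for the PEG1 line and the control line of canola. All summits whose sequence name ends in Chr8 were taken, 2336 of 31464 in PEG1 and 2053 of 27672 in the control, and no summit was filtered out. Canola (Brassica napus) is an allotetraploid whose A subgenome derives from B. rapa. The sources used do not say whether reads of its other subgenome were kept off this reference. PEG1 is the selected epiline, the control line carries the same cultivar label, f. biennis of oleifera, and the series asks how the selection bears on the distribution of the mark. Both lines were grown without treatment, for 2 weeks on agar and 12 days in soil, and leaf 4 was harvested at 26 days. Each line is represented by 1 library of native chromatin, and the labels do not say how many plants went into it.

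H3K4me3 is histone H3 trimethylated at lysine 4. In plants it is laid down by Set1-type methyltransferases on the first nucleosomes of transcribed genes, and it is scarce over silent, repeat-rich chromatin such as that around centromeres. A summit is the single base at which the peak caller placed the maximum of a peak, so the density of summits along a chromosome counts separate sites of the mark and does not measure how much of it each site carries. Positions are 1-based on the BGI pseudochromosomes version V1 of BR5307, per the sequence names. Genes were not assigned to summits, because an annotation of that build was not used here.

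The summits were crowded towards the start of the pseudochromosome in both lines. The first 9993821 bp, up to the midpoint of the sequence covered by summits, held 1481 of the 2336 PEG1 summits, 63.4% (95% Wilson interval 61.4 to 65.3), and 1317 of the 2053 control summits, 64.2% (62.1 to 66.2). The median summit lay at 7528504 in PEG1 and at 7367935 in the control, and the last summit of either line at 19987643. The best-scored summits leaned the same way but less. Of those at or above the 75th percentile of the score, 59.3% of the 599 in PEG1 and 58.6% of the 527 in the control lay before the midpoint. The median score was higher after the midpoint than before it, 19.3 against 18.5 in PEG1 and 16.1 against 13.9 in the control. On pseudochromosomes 1 to 7, 9 and 10, the fuller side of the midpoint held between 51.1 and 60.2% of the PEG1 summits and between 50.2 and 59.6% of the control summits. The skew of pseudochromosome 8 was therefore the largest of these 10 in each list. Pseudochromosome 11, which has no counterpart among the 10 chromosomes of B. rapa, had 67.3% of its PEG1 and 67.4% of its control summits on the fuller side. With 1 library per line this order has no replicate check and was not tested.

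**Figure D1:**
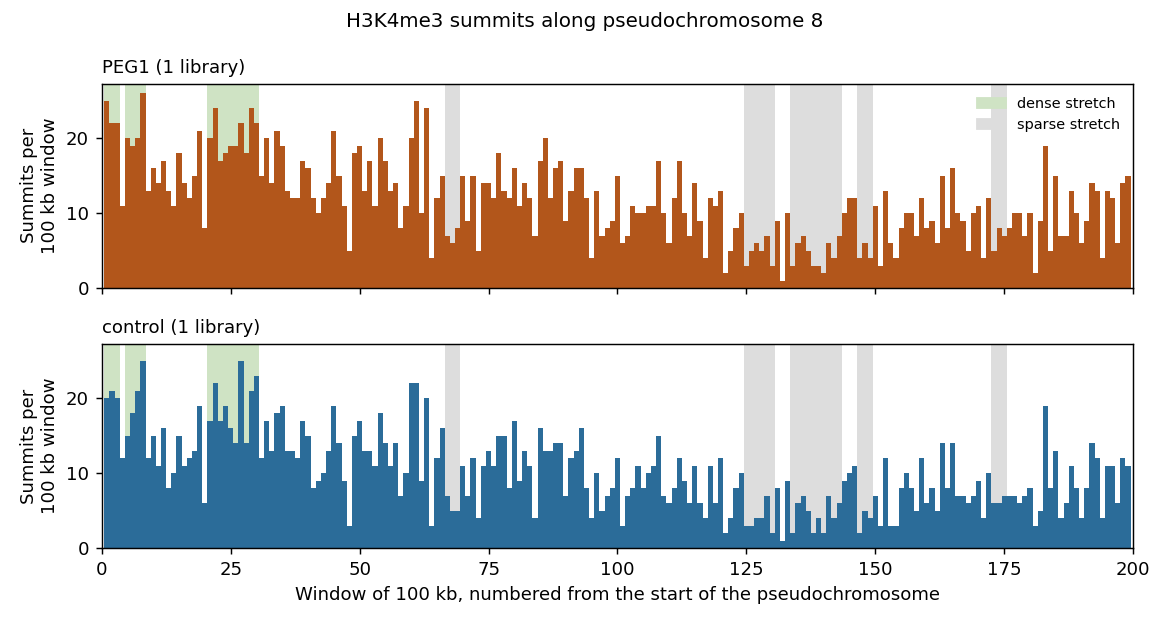
Summits per window of 100 kb (y axis) in the 199 full windows of pseudochromosome 8 in order from its start (x axis), PEG1 above and control below; green marks dense stretches and grey sparse stretches. Both lines are fullest at 1 to 1000000 and 2000001 to 3000000, within windows 1 to 30, and lowest around windows 121 to 149. Peaks and dips are largely the same, between 1 and 26 summits per window in PEG1 and between 1 and 25 in the control.

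In bins of 1 Mb the numbers ranged from 49 to 203 in PEG1 and from 46 to 188 in the control. The fullest bin was 2000001 to 3000000 and the emptiest 13000001 to 14000000 in each line, a 4.14-fold range in PEG1 and a 4.09-fold range in the control. The first bin, 1 to 1000000, came next, with 194 PEG1 and 179 control summits. Towards the far end the density recovered in part, to 113 PEG1 and 101 control summits from 19000001 to 19987643. In windows of 100 kb the mean was 11.7 ± 5.49 summits in PEG1 and 10.3 ± 5.22 in the control (SD over 199 windows). The variance over the mean of these counts was 2.58 in PEG1 and 2.66 in the control, where counts placed at random at an even rate would give about 1. Both lay within the range of pseudochromosomes 1 to 7, 9 and 10, 1.95 to 2.94 in PEG1 and 1.93 to 2.79 in the control. On pseudochromosome 8 the value grows with the window, to 7.66 in PEG1 and 7.82 in the control at 500 kb. It was 1.73 and 1.50 in windows of 100 kb among summits at or above the median score of the whole list.

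Dense stretches were defined as runs of at least 3 neighbouring windows of 100 kb that each held a number of summits of both lines together at or above the 75th percentile, 28.5 summits. There were 3 of them, all in the first 3 Mb. They ran from 1 to 300000, with 69 PEG1 and 61 control summits, from 400001 to 800000, with 85 and 79, and from 2000001 to 3000000, with 203 and 188. Together they made up 8.54% of the windows and held 15.3% of the PEG1 and 16.0% of the control summits, at 210.0 per Mb in PEG1 and 193 per Mb in the control. The single fullest window, 700001 to 800000, held 26 PEG1 and 25 control summits. The next were 2600001 to 2700000, with 22 PEG1 and 25 control summits, 6000001 to 6100000, with 25 and 22, 2100001 to 2200000, with 24 and 22, and 1 to 100000, with 25 and 20. The last of these was level, at 45 summits of both lines together, with 2800001 to 2900000 and 2900001 to 3000000. The window that begins at 6000001 lay in no dense stretch, since it and the one before it, with 20 PEG1 and 22 control summits, made a run of only 2.

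Sparse stretches, the corresponding runs at or below the 25th percentile of 14 summits, numbered 5. They held 5.57% of the PEG1 and 5.60% of the control summits on 12.6% of the windows, at 52.0 per Mb in PEG1 and 46.0 in the control. The longest ran from 13300001 to 14300000, with 46 PEG1 and 45 control summits and a median spacing of 17146 bp in PEG1 and 17859 bp in the control. The one before it, 12400001 to 13000000, had 29 PEG1 and 23 control summits, and the one after it, 14600001 to 14900000, had 14 and 11. The other two lay apart from this zone, at 6600001 to 6900000 (21 PEG1 and 17 control summits) and at 17200001 to 17500000 (20 and 19). The emptiest windows were 13100001 to 13200000, with 1 summit in each line, then 12000001 to 12100000 and 13900001 to 14000000, with 2 in each line, and then 12900001 to 13000000, 13300001 to 13400000 and 13700001 to 13800000, with 3 in PEG1 and 2 in the control, level with 18000001 to 18100000 outside this zone, with 2 in PEG1 and 3 in the control. The 1 PEG1 summit and the 1 control summit of the emptiest window matched each other and scored 66.3 and 36.7.

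Even the sparse zone was not bare. Of the 199 full windows, 0 lacked summits in PEG1 and 0 in the control. Each of pseudochromosomes 1 to 7, 9 and 10 had between 1 and 10 empty windows in PEG1 and between 1 and 12 in the control. The longest distance without a summit on pseudochromosome 8 was also short by comparison, 111853 bp in PEG1 and 111752 bp in the control. On those other 9 pseudochromosomes the longest ran from 133698 to 676160 bp in PEG1 and from 142184 to 674756 bp in the control. The windows are fixed, and the longest distance of each line on pseudochromosome 8, though over 100 kb, crossed a window boundary. The other 9 had between 158 and 346 full windows. The longest distances are single extremes of each list, and neither comparison was scaled to length or tested.

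The median distance between neighbouring summits was 4950 bp in PEG1 (95% interval from order statistics 4675 to 5219, 2335 distances) and 5664 bp in the control (5338 to 6101, 2052 distances). The distances from the 5th to the 95th percentile ran from 807 to 28933 bp in PEG1 and from 939 to 33207 bp in the control. Long distances took up much of the sequence: the 246 PEG1 distances over 20000 bp, 10.5% of all, covered 39.6% of the span, and the 260 control distances over 20000 bp, 12.7% of all, covered 43.9%. Over 50000 bp there were 19 distances in PEG1 and 28 in the control. Among the 2053 best-scored PEG1 summits, as many as the control has and a setting chosen after seeing the data, the median distance was 5625 bp, 9 distances were under 500 bp and 262 were over 20000 bp.

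**Figure D2:**
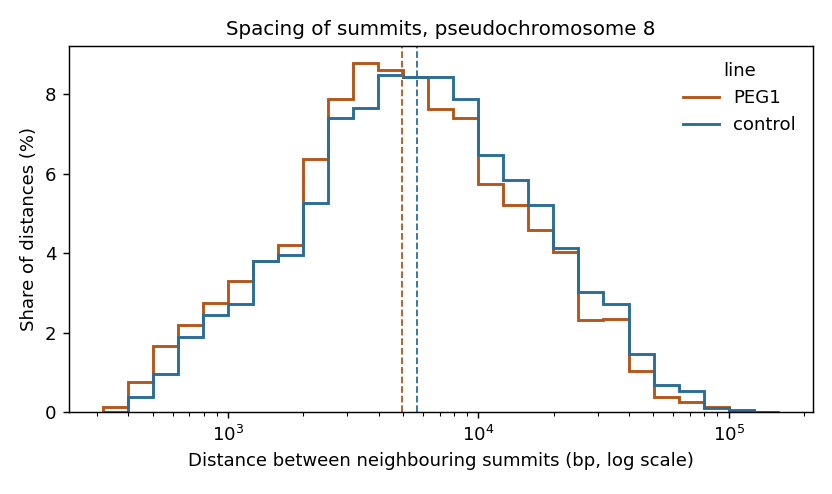
Distribution of distances between neighbouring summits (x axis, bp, log scale; y axis, percent of the line's distances) in PEG1 and in the control, with dashed lines at the medians of 4950 and 5664 bp. The curves have 1 broad maximum each and the PEG1 curve is shifted to shorter distances.

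Of the 5 longest distances of each line, 4 were at the same places in both. The longest in each, 12458046 to 12569899 in PEG1 and 12458146 to 12569898 in the control, was bounded by summits that lay within 100 bp of each other at either end. The second, 12006696 to 12104257 in PEG1 (97.6 kb) and 12006515 to 12104260 in the control (97.7 kb), likewise shared both ends within 500 bp. The same held at 6108636 to 6188690 in PEG1 (80.1 kb) and 6108335 to 6188664 in the control (80.3 kb), and at 13899069 to 13974855 in PEG1 and 13899044 to 13974852 in the control, 75.8 kb in each. Farther than 500 bp from the ends, 0 summits of the other line lay inside these 4. The remaining PEG1 distance, 14997927 to 15078870 (80.9 kb), had 1 control summit more than 500 bp inside its ends, at 15024407, with a score of 2.96, and another close to an end. The remaining control distance, 9361690 to 9438537 (76.8 kb), had 2 PEG1 summits more than 500 bp inside its ends, at 9374469 with a score of 14.1 and at 9387761 with a score of 2.95, and another close to an end with a score of 25.3.

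At the short end, 21 PEG1 distances (0.899%) and 8 control distances (0.390%) were under 500 bp, and the closest were 371 bp in PEG1 and 401 bp in the control. Joining summits up to 500 bp apart left 2315 regions in PEG1 and 2045 in the control, none with more than 2 summits. Most such pairs faced 1 summit of the other line: 15 of the 21 PEG1 pairs and 6 of the 8 control pairs had both members nearest to the same summit, and in 3 PEG1 and 2 control pairs each member had its own counterpart in the other line at 150 bp or less. For example, the PEG1 pair at 18783034 and 18783448 had scores of 56.7 and 19.3, and the control had 1 summit there, at 18783019, with a score of 31.6. The control pair at 131569 and 131970 scored 6.63 and 15.3 and faced 1 PEG1 summit at 131981, which scored 35.1. Among all pairs under 1000 bp, 90 of 175 in PEG1 but 43 of 117 in the control faced 1 summit. Each member had its own counterpart in 60 of these PEG1 pairs and 59 of these control pairs. Peak boundaries were not used here, so whether such a place is 1 domain or 2 was not tested.

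Summits with a close neighbour in their own list scored lower than those farther apart. The score is the peak caller's −log10 significance value for the peak, is the authors' own, and depends on depth, which is unknown, so it is read within a list. In bulk leaf tissue, fewer cells that carry the mark at a site and less of it per cell cannot be told apart in it. Where the nearest summit of the same line was within 1000 bp, the median score was 12.3 in PEG1 (339 summits) and 10.5 in the control (229 summits). Where it was 2000 to 5000 bp away, the medians were 19.7 in PEG1 (947 summits) and 16.0 in the control (802 summits), and beyond 10000 bp they were 21.2 (212 summits) and 17.0 (227 summits). Across the 199 windows, the number of summits and their median score had a Pearson coefficient of −0.20 in PEG1 and −0.30 in the control, and a Spearman coefficient of −0.10 and −0.25. These are descriptions over windows of 1 library each. The 2 emptiest bins of 1 Mb had the highest median scores: the PEG1 median was 28.0 and the control median 22.1 from 12000001 to 13000000, and 25.8 and 19.5 from 13000001 to 14000000, against 18.5 and 14.5 on the whole pseudochromosome. This did not extend to the next emptiest, 14000001 to 15000000, with a PEG1 median of 16.1 and a control median of 15.2. In the windows of 100 kb at or below the sparse threshold the PEG1 median, 18.5, equalled that in the windows at or above the dense threshold, and the control medians were 17.8 and 14.4.

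PEG1 had 1.14 times as many summits as the control on pseudochromosome 8 (exact conditional 95% interval 1.07 to 1.21, counting error only), within the 1.12 to 1.17 of pseudochromosomes 1 to 7, 9 and 10. The peak names of the control list carry a test-run prefix and those of the PEG1 list a sample code, and whether the same caller settings made both is not stated; the part of the settings in this ratio and in the unmatched shares below was not tested. PEG1 held more summits than the control in 36 of the 37 windows of 500 kb with at least 50 summits of both lines, and the same number in the other one, 3500001 to 4000000, with 70 each. The 2 full windows under that minimum held 26 PEG1 and 20 control summits from 12500001 to 13000000 and 20 of each from 13500001 to 14000000. The PEG1 share in these windows was 53.4 ± 1.74% (SD over 37 windows), from 50.0 to 56.6%. It was highest at 11000001 to 11500000, with 60 PEG1 and 46 control summits, 18500001 to 19000000, with 43 and 33, and 17500001 to 18000000, with 45 and 35. It was lowest in the window with 70 each, at 5500001 to 6000000, with 66 PEG1 and 64 control summits, and at 500001 to 1000000, with 94 and 91. The exact binomial interval of every one of the 37 windows included the share over the whole pseudochromosome, 53.2%. Such an interval treats the counts of the lines as independent, which they are not. It is much wider than the spread of the shares, so its cover cannot show that the share was even. In windows of 100 kb the counts differed by at most 2 in 147 of 199 windows, PEG1 was higher in 140 and the control in 18, and the counts of both lines had a Pearson coefficient of 0.96 and a Spearman coefficient of 0.96. Most summits are shared, so the counts of the lines are not independent.

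Positions were largely common to the lines. Within 500 bp, 1924 of 2336 PEG1 summits, 82.4% (Wilson 80.8 to 83.9), had a control summit and 412 had none. Within the same distance 1911 of 2053 control summits, 93.1% (91.9 to 94.1), had a PEG1 summit and 142 had none. The unmatched shares, 17.6% in PEG1 and 6.92% in the control, stand against 18.7% of all PEG1 and 7.76% of all control summits on the B. rapa reference, so both lay near the background. The stretch of sequence within 500 bp of a control summit made up 10.1% of the span and that within 500 bp of a PEG1 summit 11.4%. Within 50 bp the shares were 51.0% in PEG1 and 58.0% in the control. Beyond 5000 bp from any summit of the other line lay 99 PEG1 and 20 control summits, the farthest 31272 bp away in PEG1 and 26480 bp in the control. The share of the longer PEG1 list is the lower one because nearly the same number of summits match from either side.

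Most paired summits sat less than the length of a nucleosome apart. There were 1904 pairs in which each was the other's nearest summit within 500 bp. Their median distance was 34.0 bp, 25% were within 14.0 bp and 90% within 188 bp, and 36 pairs had the identical base. The PEG1 summit was at the higher coordinate in 925 pairs and at the lower in 943, with a median shift of 0 bp. The number of pairs declined from 643 at 0 to 19 bp to 88 at 80 to 99 bp and 32 at 180 to 199 bp, and bins of 20 bp beyond 200 bp held 4 to 21 pairs. Strong summits were placed more closely than weak ones. By score class of the PEG1 member, the median distance was 64.0 bp in the lowest class (283 pairs) and 23.0 bp in the highest (567 pairs), and 32.2% and 9.17% of the pairs in these classes were over 100 bp apart.

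**Figure D3:**
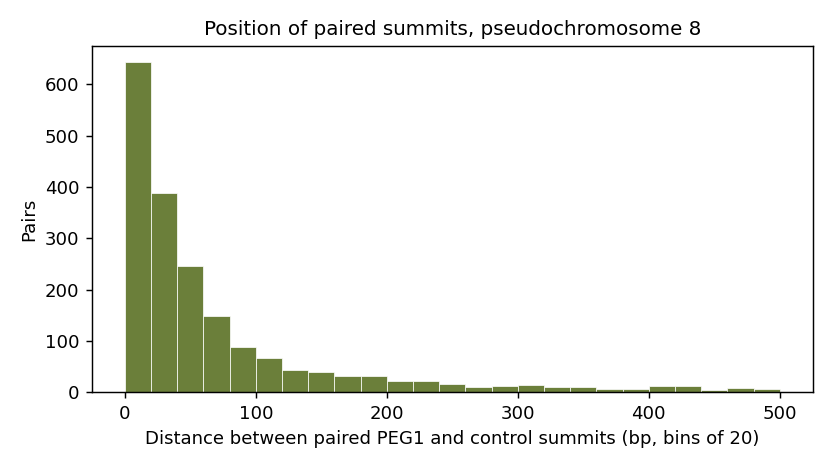
Number of pairs (y axis) by the distance between the PEG1 and the control summit of a pair (x axis, bp, bins of 20 bp) for the 1904 mutually nearest pairs within 500 bp. The first bin holds 643 pairs, and the counts decline to 21 or fewer per bin beyond 200 bp.

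The strongest sites were common to both lines. The best-scored PEG1 summit, at 15198273 (score 122.8, place 5 in the whole PEG1 list), lay 9 bp from the best-scored control summit, at 15198282 (99.4, place 8 in the control list). The PEG1 summit at 7489757 (121.9) lay 4 bp from the control summit at 7489761 (92.2), that at 15889215 (102.1) 18 bp from 15889197 (77.2), and that at 5485007 (92.4) 9 bp from 5485016 (93.7). These 4 places were among the 5 best of each line. The remaining PEG1 summit of its best 5, at 5642618 (104.8), had a control summit 6 bp away that was number 35 of the control on the pseudochromosome (54.5). The remaining control summit, at 6117 near the very start (86.1), had a PEG1 summit 3 bp away that was number 14 of PEG1 (79.4). The sets of best-scored summits coincided in part: 11 of the 20 best PEG1 summits had one of the 20 best control summits within 500 bp, 58 of the 100 best PEG1 summits had one of the 100 best control summits within 500 bp, and 129 of the 200 best had one of the 200 best.

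The order of scores was similar in both lines over the 1904 pairs, with a Spearman coefficient of 0.85. This is a description over sites of 1 library each. The percentile of a summit within its own list on the pseudochromosome differed by more than 25 points in 241 pairs (12.7%), with the PEG1 percentile higher in 190 and lower in 51. The median difference was 3.17 points. With percentiles taken among the paired summits only, an alternative chosen after seeing the data, the PEG1 percentile was higher by more than 25 points in 114 pairs and lower in 106. The largest difference towards PEG1 was at 18148668 (PEG1 score 30.8, percentile 74.9) and 18148651 (control score 5.20, percentile 13.9), followed by 18268698, the identical base in both lines (PEG1 score 35.9, control score 8.37), and 17668695 in PEG1 (28.5) against 17668748 in the control (5.86). The next were 3228247 in PEG1 (42.6) against 3228256 in the control (11.3) and 2939453 in PEG1 (31.7) against 2939439 in the control (8.43). In the other direction the largest was at 6908878 in PEG1 (10.2, percentile 27.3) and 6908882 in the control (27.7, percentile 80.9). It was followed by 16379342 in PEG1 (10.2) against 16379390 in the control (25.8), and by 3104346 in PEG1 (5.12) against 3104779 in the control (16.9), summits 433 bp apart. The last were 1854602 in PEG1 (14.5) against 1854521 in the control (27.7) and 18852381 in PEG1 (14.5) against 18852398 in the control (27.7). No replicate shows how far such percentiles vary within a line.

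Summits without a partner were mostly weak. Their median score was 6.25 in PEG1 and 5.52 in the control, against 22.7 for matched PEG1 and 15.3 for matched control summits. Both lists were split at their score quartiles into 4 classes. In the lowest class 50.4% of the PEG1 summits (Wilson 46.4 to 54.4) and 17.6% of the control summits (14.7 to 21.04) had no partner, and in the highest class 1.56% (0.823 to 2.94) and 0.783% (0.305 to 2.00). The control was matched to the longer list, and a difference of the lines in the lowest class and the difference in list length cannot be told apart.

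**Figure D4:**
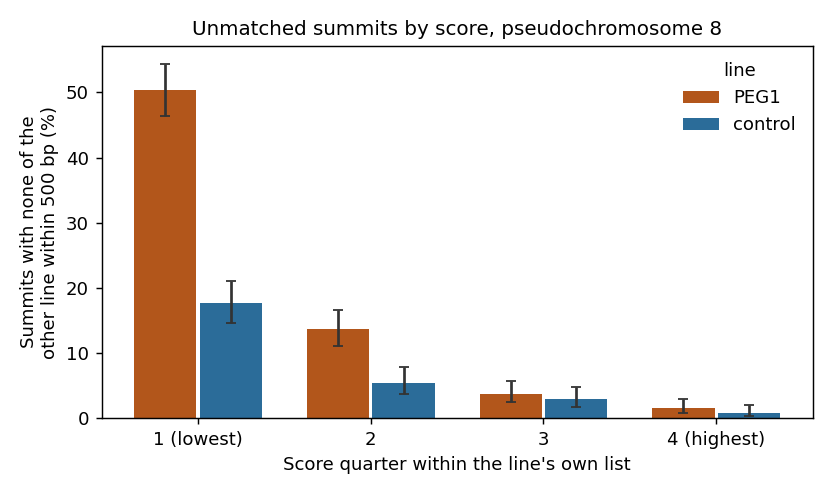
Percent of summits that lacked a counterpart within 500 bp (y axis, bars with 95% Wilson intervals) by score class within the line's own list (x axis, lowest to highest), PEG1 left and control right in each class. The share declines with score in both lines, to 1.56% in PEG1 and 0.783% in the control in the highest class.

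The best-scored summits without a partner lay close to one beyond the limit. In PEG1 these were at 3901827 (score 47.7, nearest control summit 1551 bp away), 15693025 (43.1, 806 bp), 3369001 (39.5, 833 bp), 13810486 (38.4, 524 bp) and 1316568 (37.5, 529 bp). In the control they were at 3369834 (40.9, nearest PEG1 summit 833 bp away), 6596837 (34.6, 972 bp), 7692331 (31.6, 1376 bp), 3180750 (28.1, 905 bp) and 578609 (22.1, 563 bp). At 3369001 and 3369834 each line had a strong summit that was the other's nearest, 833 bp apart. Unmatched summits also stood near others of their own line: 19.9% of those in PEG1 and 28.2% of those in the control had an own neighbour within 1000 bp, against 13.4% of matched PEG1 and 9.89% of matched control summits.

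Most summits without a partner stood singly. With 17.6% of PEG1 and 6.92% of control summits unmatched, most would also do so if scattered at random along the list. Whether the counts below depart from that was not tested. Of the 412 in PEG1, 301 stood alone between matched summits, and the rest came in 34 runs of 2, 10 of 3, 2 of 4 and 1 of 5. Of the 142 in the control, 127 stood alone and the rest came in 6 runs of 2 and 1 of 3. The longest PEG1 run had 5 summits, from 11080635 to 11105231, with scores of 4.03 to 14.5 and no control summit between them. The next PEG1 runs had 4 summits each, from 8511399 to 8517257 (best score 16.1) and from 18504375 to 18548364 (best score 6.28). The only control run of 3, from 4467163 to 4489848, had scores of 8.43 to 15.3 and 1 PEG1 summit inside it. Of the 6 control runs of 2 summits, 2 are named here, at 13811010 to 13829524 (best score 19.5) and 7992661 to 8001351 (15.3). Each of these had a summit that missed the 500 bp limit narrowly, so both runs depend on that limit. The control summit at 13811010 lay 524 bp from the PEG1 summit at 13810486, itself listed above as unmatched.

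In bins of 1 Mb, between 10.2 and 26.6% of the PEG1 summits and between 0 and 9.30% of the control summits had no partner. The highest PEG1 share was 29 of 109 summits from 11000001 to 12000000, 26.6% (Wilson 19.2 to 35.6), the bin that holds the run of 5 and the highest ratio of PEG1 to control summits, 1.28 (exact interval 0.957 to 1.72). The run and the ratio draw on the same unmatched summits and are not separate evidence. That bin was the only one of 20 whose interval lay above the 18.7% of all PEG1 summits, and none lay below. It was picked as the highest of 20, and its excess was not tested. From 12000001 to 13000000, 0 of 47 control summits lacked a partner. This allows a share of up to 7.56% by the Wilson interval, or 6.38% by a limit of 3 counts, against 7.76% of all control summits. This bin was likewise picked, as the lowest of 20 in the control, and its shortfall was not tested. Dense and sparse windows matched similarly in the control, where 6.97% of summits (5.45 to 8.87) had no partner in the windows of the dense threshold or above and 7.34% (4.75 to 11.2) in those of the sparse threshold or below. In PEG1 these shares were 15.6% (13.5 to 18.1) and 20.1% (15.9 to 24.9). The intervals overlapped, which does not compare the shares, and the difference was not tested. In the dense and sparse stretches alone the shares were 14.3 and 15.4% in PEG1 and 7.01 and 6.09% in the control.

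**Figure D5:**
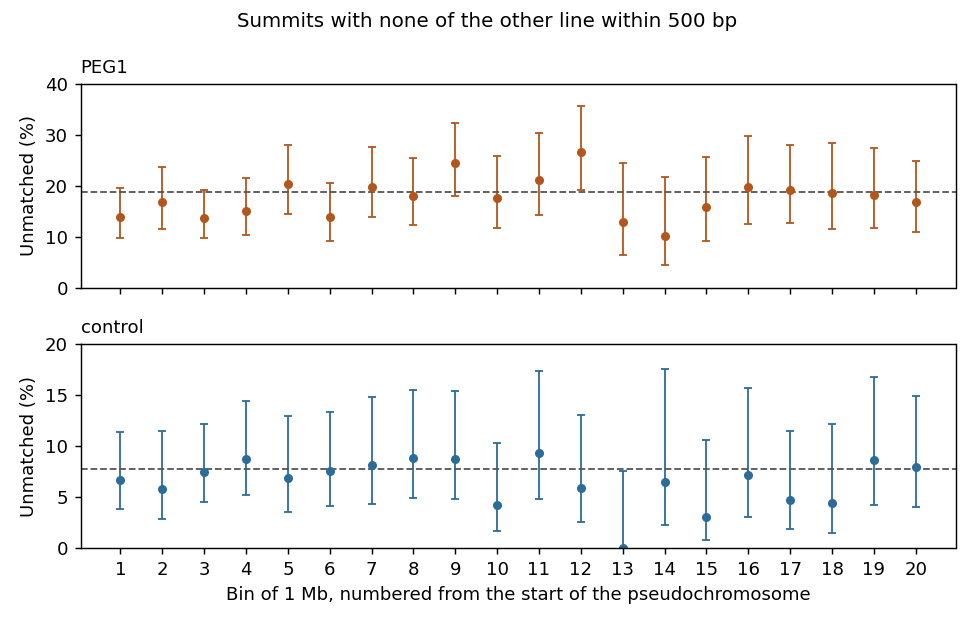
Percent of summits that lacked a counterpart within 500 bp (y axis, points with 95% Wilson intervals) in the 20 bins of 1 Mb from the start of pseudochromosome 8 (x axis), PEG1 above and control below; dashed lines are the shares over all B. rapa pseudochromosomes, 18.7% in PEG1 and 7.76% in the control. In PEG1 7 points lie above the line, of which the interval of bin 12 alone clears it. In the control bin 13, the lowest of 20, is at 0, and its interval ends just below the line.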

How the data were processed

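Leaf chromatin of PEG1 and control canola was digested with micrococcal nuclease (30 U, 10 minutes, no crosslinking) and precipitated with 2.5 ug of antibody to H3K4me3, per the labels' protocols. A control-line library without antibody was not analysed here. The submitters' processing notes name MACS2 2.0 for the summits; aligner, background and filters are not given in the sources used. The authors deposited a −log10 score per summit, whether of p or q is not stated. The lowest, 1.303 in PEG1 and 1.309 in the control, lies just above the −log10 of 0.05. Scores recur (821 distinct values among 2336 PEG1 and 671 among 2053 control summits), so ranks have ties. Read depth is unknown.

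Each library has 1 list on this reference. Summits were matched within 500 bp and counted in windows that start at position 1. Intervals cover counting error only and treat summits as independent. A comparison of lines with 1 library each has no replicate error, and therefore no p-values are reported. The rule for named regions took the best-scored and best unmatched summits, longest gaps, closest pairs, longest unmatched runs, extreme windows, stretches of 3 or more windows and largest percentile differences; of the closest pairs only examples are printed. The region, measures and rule were chosen with earlier results of these data known. The matching code was run on simulated lists, in which shared summits moved far less than the 500 bp limit and added ones lay far beyond it. That checks the code only and cannot show how well summits near the limit are matched. Versions were matplotlib 3.10.9, SciPy 1.17.1, pandas 2.3.3, NumPy 2.4.6 and Python 3.11.15.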

Additional observations from a re-analysis of the deposited data

How the results depend on the processing

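No alternative could leave out a library, since each line has 1, and depth is unknown. No paired analysis was possible because each line has 1 library. Of 29 alternative values 25 moved beyond the interval of the value, 1.5 times for counts of pairs, or where there is none, when rounded to 3 digits, and the other 4 did not. The percentages of summits matched were 70.6 in PEG1 and 80.3 in the control within 150 bp, 90.2 and 98.1 within 2000 bp, 78.1 and 87.2 among summits at or above the list median score, and 88.6 in each with equally long lists, which forces them together. The median-score setting cut both lists, so a strong summit whose partner scored below the other cut counted as unmatched. Its lower percentages therefore do not show that strong summits match less. Against the full other list, 31 of 1158 PEG1 summits above the line's median on the pseudochromosome had no partner. In the control these were 19 of 1026. The ratio of summits was 1.28 when both lists were limited to scores of at least 10, a setting that depends on depth. The variance over the mean was 4.35 in PEG1 and 4.40 in the control in windows of 250 kb, 7.66 and 7.82 in windows of 500 kb, and 1.73 and 1.50 at or above the median score, where counts are smaller. Median spacing there was 9763 bp in PEG1 and 11576 bp in the control, with fewer summits by construction, and 5625 bp in PEG1 with equally long lists, added after seeing the data. The Pearson coefficient between lines over windows was 0.978 at 250 kb, 0.986 at 500 kb and 0.888 at or above the median score. The Spearman coefficient of paired scores was 0.849 within 150 bp and 0.846 within 2000 bp. With percentiles among paired summits only, chosen after seeing the data, 114 pairs had the higher and 106 the lower percentile in PEG1, against 190 and 51.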
